A study of Mus musculus with 2 samples.

Results

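The miR-148 family of the mouse consists of the microRNA (miRNA) genes Mir148a, Mir148b and Mir152, which were examined in microRNA-seq libraries of embryonic lung. The 3 genes were taken by their symbols from 1973 miRNA genes listed, by a rule that sets no threshold on a measured value. The 2 libraries were biological replicates of 1 group, B6NCrl mouse lung at embryonic day 14.5 (E14.5), with no treatment, mutant allele or other stage in the labels. Each was described as the lung of 1 pup, yet the sex was given as pooled, so the number of embryos per library is unclear. The pups were collected on different days, and day and replicate cannot be told apart. A bulk library does not show which cells held a miRNA, and fewer cells of a type and less RNA per cell cannot be told apart.

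A miRNA is cut from a hairpin transcript into a short guide that is loaded into an Argonaute protein. The guide pairs with messenger RNAs (mRNAs) mainly through its seed, bases 2 to 8 from the 5′ end, and lowers their translation and stability. The 3 family genes give guides with an identical seed and so share most predicted targets. In human cells the family is best known for acting on mRNAs of DNA methyltransferases, the enzymes that methylate cytosines.

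The mature guides from the 3′ arm of each hairpin are shown to compare the shared seed, in capitals, with the bases in which the genes differ. All sequences of miRNAs are from RefSeq (GRCm38.p6, the assembly also called mm10), in which all 3 genes had an entry.
miR-148a-3p: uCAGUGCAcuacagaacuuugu
miR-148b-3p: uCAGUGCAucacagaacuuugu
miR-152-3p: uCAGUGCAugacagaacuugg
Positions counted from the 5′ end, miR-148a-3p and miR-148b-3p differed at C9U and U10C and were identical at the other 20 of 22 positions. Between miR-148a-3p and miR-152-3p the differences were C9U, U10G and U20G over 21 positions. Between miR-148b-3p and miR-152-3p they were C10G and U20G. The guides therefore varied right after the seed and near the 3′ end.

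Of 1738 mature mouse miRNAs in RefSeq, these 3 alone carried CAGUGCA at bases 2 to 8. The same 7 letters opened 7 other miRNAs 1 base earlier, at positions 1 to 7, among them miR-130a-3p of the related miR-130 family. That shift gives miR-130a-3p another seed, AGUGCAA, as its sequence shows with the 7 shared letters in capitals.
miR-130a-3p: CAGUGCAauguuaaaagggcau

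The 5′ arms are shown because gene counts do not separate the arms, and their seeds, in capitals, are not all alike.
miR-148a-5p: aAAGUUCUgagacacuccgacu
miR-148b-5p: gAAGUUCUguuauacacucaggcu
miR-152-5p: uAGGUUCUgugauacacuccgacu
Mir148a and Mir148b share the 5′ arm seed AAGUUCU, whereas that of Mir152 is AGGUUCU.

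The hairpins are shown with the 3′ arm guide in capitals, since each count covers a whole hairpin.
Mir148a: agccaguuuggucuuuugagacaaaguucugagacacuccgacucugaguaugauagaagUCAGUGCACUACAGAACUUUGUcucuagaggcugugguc
Mir148b: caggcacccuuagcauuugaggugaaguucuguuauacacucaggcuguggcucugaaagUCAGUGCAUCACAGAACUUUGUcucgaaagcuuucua
Mir152: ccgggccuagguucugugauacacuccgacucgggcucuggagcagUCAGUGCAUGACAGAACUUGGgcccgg
Over the whole hairpin, guide included, identity was taken over all aligned columns, and columns with a gap counted as not identical. Mir148a and Mir148b were identical in 67.6% of 102 columns, Mir148a and Mir152 in 54.5% of 101, and Mir148b and Mir152 in 57.6% of 99. The shorter entry of Mir152 adds gap columns, so these values do not rank the pairs by likeness of their aligned bases. The hairpin of Mir152 was the shortest of the 3, at 73 nt against 99 nt for Mir148a and 97 nt for Mir148b, and its GC content was 61.6% against 45.5% and 45.4%. Folding energies predicted with RNAfold were -41.0 kcal/mol for Mir148a, -30.9 kcal/mol for Mir148b and -43.5 kcal/mol for Mir152.

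How well reads of the 3 genes can be separated follows from these letters. The longest run that a mature arm of any member shared with another of 2201 annotated miRNA hairpins, on either strand, was 12 nt, and none of the 3 hairpins shared 20 nt with another. Each mature arm occurred in annotated transcripts of 1 gene. Exact full-length reads could thus be told apart among annotated transcripts. The rest of the genome was not searched, and the mismatch setting of the alignment is not given in the sources used here. Reads with errors at positions 9, 10 or 20 were not examined.

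The letters TGCACTG, the reverse complement of the seed, were searched for in the coding sequence and 3′ UTR of 1 transcript each of the mouse DNA methyltransferase genes, the family's best known targets. Dnmt1 encodes the enzyme that maintains methylation after replication, and Dnmt3a and Dnmt3b encode enzymes that set it anew. Each held 1 match, in capitals, followed by A.
Dnmt1, 3′ UTR: gccccacgTGCACTGatg
Dnmt3a, coding sequence: tcctgtggTGCACTGaaa
Dnmt3b, coding sequence: ttttgtggTGCACTGagc
The match in Dnmt1 began at base 23 of a 312-base 3′ UTR (whole stretch shown: mm10 chr9:20907489-20907506, minus strand). Of 15096 3′ UTRs cut to that length, 4.17% held the same letters. The matches in Dnmt3a (whole stretch shown: mm10 chr12:3906859-3906876, plus strand) and Dnmt3b (whole stretch shown: mm10 chr2:153684453-153684470, plus strand) began at bases 2569 and 2425 of the coding sequence. Of coding sequences cut to the same lengths as theirs, 23.7% and 22.8% held the letters. A match is a stretch of letters, and no mRNA or protein was measured here.

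The 3 genes lie on different chromosomes, each near a cluster of Hox genes, the transcription factor genes that pattern the body axis. In mm10 with GENCODE M21 names, Mir148a (ENSMUSG00000065505.1) lies at chr6:51269812-51269910 on the minus strand, inside no annotated protein-coding gene. Hosts of other gene types were not searched for. Its nearest protein-coding gene is Nfe2l3, at 163 kb. Mir148b (ENSMUSG00000065560.1) lies at chr15:103285125-103285221 on the plus strand, in intron 1 of Copz1 and 248 kb from Hoxc4. Mir152 (ENSMUSG00000065515.1) lies at chr11:96850393-96850465 on the plus strand, in intron 1 of Copz2 and 482 kb from Hoxb1. The hosts Copz1 and Copz2, both on the strand of their miRNA, encode zeta subunits of coatomer, the coat of vesicles that return from the Golgi. Intron 1 spans 16159 bases in Copz1 and 676 bases in Copz2, and neither miRNA overlaps an annotated exon of its host. The miRNA gene nearest to each member lay 352 kb (Gm22914), 65.2 kb (Mir6963) and 213 kb (Mir8103) away. Gm22914 and Mir6963 had 0 counts in both libraries, and Mir8103 had 6 and 4 counts. None of these neighbours thus held more than 6 counts in a library.

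Replicate 1 held 5128214 counts on the strand of a miRNA gene and replicate 2 held 2332032, and levels are given as counts per 1000000 of these (CPM). At these depths a count of 0 still allows 3 counts, equal to 0.585 and 1.29 CPM. All 22 of 22 miRNAs listed as markers of cell types had at least 10 counts in both libraries, against 320 of all 1973 genes. The list includes markers of heart and of hepatocytes, so this count does not test the tissue label. Among the markers, the 5 epithelial miRNAs of the miR-200 family held 3.33% and 3.37% of counts in replicates 1 and 2, and endothelial Mir126a 7.60% and 5.84%. The heart miRNAs Mir208a and Mir208b held 0.0349% in replicate 1 and 0.00373% in replicate 2, and the part of such tissue in the values below was not tested.

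All 3 family genes were detected in both libraries, above the median of the 320 miRNA genes that had at least 10 counts in each, and Mir148a was the most abundant member. Mir148a had 5200 counts in replicate 1 and 2695 in replicate 2, which is 1014 CPM (95% exact Clopper-Pearson interval 987 to 1042) and 1156 CPM (1112 to 1200). Its mean was 1085 ± 100.2 CPM (SD, n = 2). Mir148b had 2032 and 1020 counts, or 396 CPM (379 to 414) and 437 CPM (411 to 465), with a mean of 417 ± 29.1 CPM (n = 2). Mir152, the lowest of the 3, had 1496 and 718 counts, or 292 CPM (277 to 307) and 308 CPM (286 to 331), with a mean of 300 ± 11.4 CPM (n = 2). The order was Mir148a above Mir148b above Mir152 in both libraries, and no value of a member overlapped a value of another. These intervals reflect counting error of reads alone. PCR copies of a molecule are counted again where no molecular identifier marks them, so the intervals can be too narrow. On the opposite strand the family had 1 read, at Mir152 in replicate 1.

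**Figure D1:**
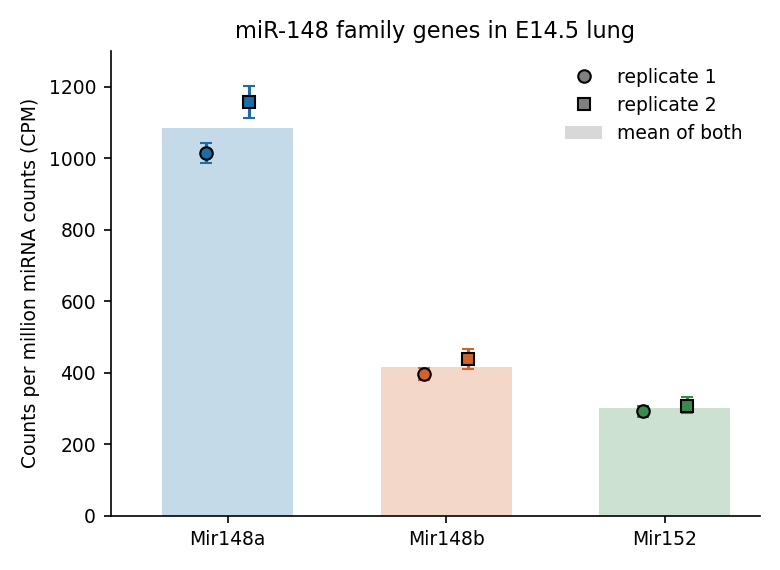
Level of each family gene in CPM (vertical axis), with points for the 2 libraries, error bars for 95% exact binomial intervals and bars for the mean. Mir148a stands at 1014 and 1156 CPM, above Mir148b at 396 and 437 CPM and Mir152 at 292 and 308 CPM.

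By mean CPM the genes ranked 101 (Mir148a), 133 (Mir148b) and 148 (Mir152) of 1973. In each library alone the rank lay within 3 places of that for Mir148a and for Mir148b, and within 4 places for Mir152. Of the 320 miRNA genes that reached 10 counts in each library, 68.8% stood at or below Mir148a, 58.8% at or below Mir148b and 54.1% at or below Mir152. The median of those 320 genes was 195 CPM, and the members exceeded it 5.56-fold, 2.14-fold and 1.54-fold. Mir143, the most abundant gene in the mean and abundant in smooth muscle, exceeded Mir148a 64.0-fold and Mir152 232-fold.

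**Figure D2:**
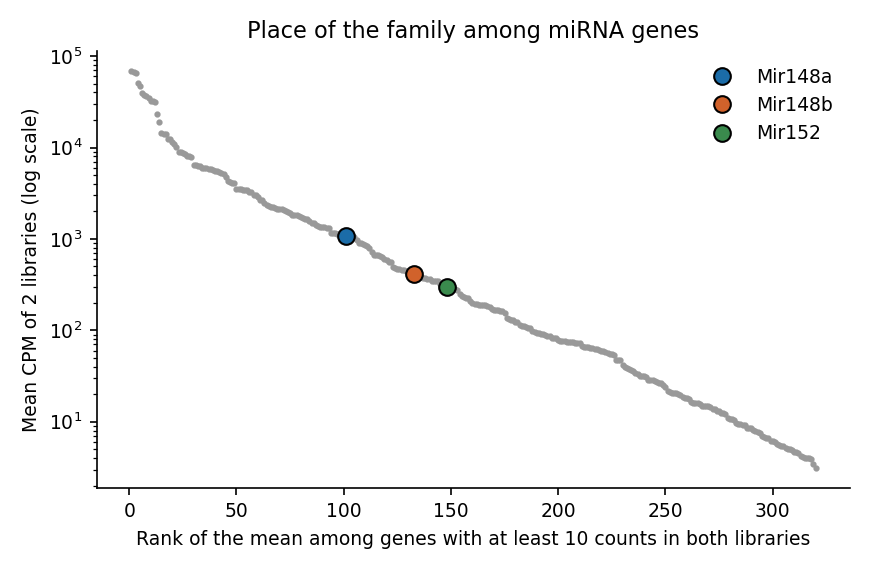
Mean CPM on a log scale (vertical axis) against rank (horizontal axis) for the 320 miRNA genes that reached 10 counts in each library, with the family genes in colour. The members lie at ranks 101, 133 and 148, above the median of 195 CPM.

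The genes nearest to a member in level, by mean log2(CPM + 1) over the 2 libraries, were not separated from it by these data. Nearest to Mir148a were Mir341 and Mir467e above it and Mir483 and Mir16-2 below it, with differences from 0.06 to -0.04 on that scale. Nearest to Mir148b were Mir210 and Mir323 above and Mir125b-2 and Mir31 below, with differences from 0.08 to -0.06. Nearest to Mir152 were Mir3071 and Mir450b above and Mir125b-1 and Mir32 below, with differences from 0.09 to -0.08. For each of these genes the range of its 2 libraries overlapped that of the member, so the exact rank of a member is not settled.

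The family together held 8728 counts in replicate 1 and 4433 in replicate 2. These sums were 0.170% (exact interval 0.167 to 0.174) and 0.190% (0.185 to 0.196) of all miRNA counts, with a mean of 0.180% ± 0.0141 (SD, n = 2). Within the family, Mir148a gave 59.6% (58.5 to 60.6) of the counts of replicate 1, and of replicate 2 it gave 60.8% (59.3 to 62.2). Mir148b gave 23.3% (22.4 to 24.2) and 23.0% (21.8 to 24.3). Mir152 gave 17.1% (16.4 to 17.9) and 16.2% (15.1 to 17.3). For each gene the intervals of the 2 libraries overlapped, and the order of the shares was the same.

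**Figure D3:**
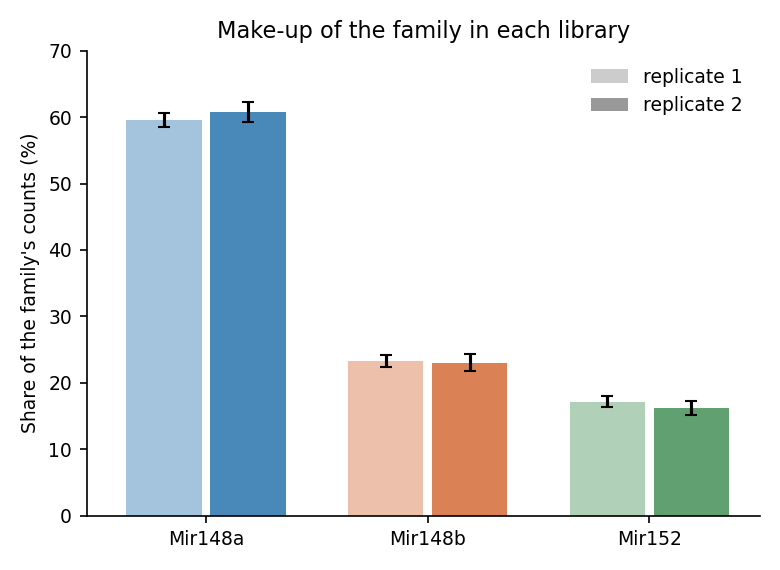
Share of the family's counts in percent (vertical axis) for each gene, with 1 bar per library and 95% exact binomial intervals. Mir148a holds 59.6% and 60.8%, Mir148b 23.3% and 23.0%, and Mir152 17.1% and 16.2%.

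Ratios between members were taken within each library and need no scaling between libraries. Mir148a exceeded Mir148b 2.56-fold in replicate 1 (95% exact interval 2.43 to 2.70) and 2.64-fold in replicate 2 (2.46 to 2.84). The mean log2 ratio was 1.38 ± 0.03 (SD, n = 2). Mir148a exceeded Mir152 3.48-fold (3.28 to 3.68) and 3.75-fold (3.46 to 4.08), a log2 ratio of 1.85 ± 0.08. Mir148b exceeded Mir152 1.36-fold (1.27 to 1.45) and 1.42-fold (1.29 to 1.57), a log2 ratio of 0.47 ± 0.05. Each mean log2 ratio was larger than its SD between libraries. No p is given, because with 2 libraries the smallest p of an exact sign test is 0.5, two-sided. The efficiency with which each sequence entered a library was not measured, and such a bias can recur in both.

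The family was set beside the miR-29 family (Mir29a, Mir29b-1, Mir29b-2 and Mir29c), whose members are known in human lung cancer cells for acting on DNMT3A and DNMT3B mRNAs. The miR-148 family held 9.78-fold more counts in replicate 1 and 12.0-fold more in replicate 2. The mean log2 ratio was 3.44 ± 0.21 (SD, n = 2), and by geometric means over members it was 5.84. The sum was 1801 ± 141 CPM for miR-148 and 166 ± 11.1 CPM for miR-29. Mir152 alone, at 292 and 308 CPM, stood above the whole miR-29 family at 174 and 158 CPM. Mir29a, the leading miR-29 gene, had 535 and 212 counts, and Mir29b-1 and Mir29b-2 had at most 4 in a library. In the miR-29 family 3 of 4 hairpins share 20 nt with another, against 0 of 3 in miR-148. Reads that map to several places were assigned to no gene, so the miR-29 sum can be too low and the ratio too high.

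Set beside the miR-130 family (Mir130a, Mir130b, Mir301 and Mir301b), where miR-130a-3p has the same 7 letters 1 base earlier, the family was lower. It held 22.1-fold fewer counts in replicate 1 and 21.6-fold fewer in replicate 2. On the log2 scale that is -4.45 ± 0.02 (SD, n = 2), and it was -2.02 by geometric means over members and -3.41 without the leading gene of each family. Neither family shares 20 nt with another hairpin. Most of the difference lay in Mir130a (30658 and 32760 CPM), which stood above each member of miR-148. Mir148a, at 1014 and 1156 CPM, lay nearest to Mir301, at 1194 and 1481 CPM. Each member of miR-148 stood above Mir301b, at 68.8 and 75.9 CPM.

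The miR-103 family (Mir103-1, Mir103-2 and Mir107) lies in introns of related host genes, as Mir148b and Mir152 do. Those hosts encode pantothenate kinases, which start coenzyme A synthesis. By summed counts miR-148 was 1.20-fold lower in both libraries, a log2 ratio of -0.26 ± 0.01, but by geometric means over members it was higher, at a log2 ratio of 2.28. All 3 hairpins of miR-103 share 20 nt with another, so that sum, 2161 ± 179 CPM, and the geometric mean of that family can be too low as well. Its assigned counts were almost all from Mir107, whereas Mir103-1 had 27 and 23 counts.

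By the fold of the highest over the lowest member, assigned counts were closer to each other in miR-148 than in the other families. The share of the leading gene did not set miR-148 apart from miR-29. The highest member exceeded the lowest 3.48-fold and 3.75-fold in replicates 1 and 2 in miR-148, against 445-fold and 432-fold in miR-130 and 372-fold and 223-fold in miR-103. In miR-29 the highest had 535 and 212 counts and the lowest, Mir29b-2, had 2 in each library. Mir29c of that family, at 351 and 153 counts, lay near the highest. The leading gene held 60.2% ± 0.860 of the counts of miR-148 (SD, n = 2), against 58.7% ± 1.79 for miR-29, 80.6% ± 1.33 for miR-130 and 96.1% ± 0.220 for miR-103. These folds and shares were not tested between families, which hold 3 or 4 genes each, and lost reads can move those of miR-29 and miR-103.

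Since each member lies near a Hox cluster, its level was set beside the miRNAs inside that cluster. Near HoxA, Mir148a exceeded Mir196b, which acts on Hox mRNAs, 35.9-fold in replicate 1 and 14.6-fold in replicate 2. The gap between these folds came mostly from Mir196b, at 28.3 and 78.9 CPM. Near HoxC, Mir148b exceeded Mir615, in the Hoxc5 gene, 5.11-fold and 5.60-fold, and Mir196a-2 40.6-fold and 37.8-fold. Near HoxB the order was reversed for Mir10a, a miRNA beside Hoxb4. Mir152 stood 121-fold below Mir10a in replicate 1 and 128-fold below it in replicate 2. Mir196a-1 of the same cluster had 8 and 7 counts, against 1496 and 718 for Mir152. Mir196a-1 and Mir196a-2 share 20 nt with another hairpin, and their levels can be too low. On chromosome 2, which holds HoxD and no family member, Mir10b stood at 600 ± 51.9 CPM. Of the 6 Hox miRNAs, the most abundant, Mir10a, thus shared a chromosome with the lowest member.

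**Figure D4:**
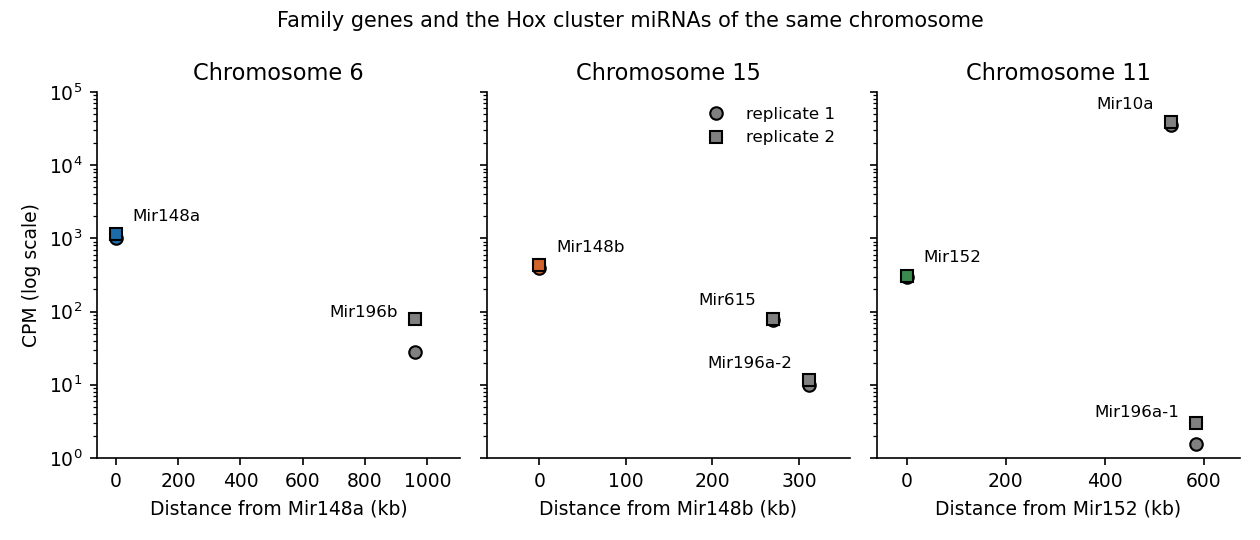
CPM on a log scale (vertical axis) of each family gene and of the miRNAs of the Hox cluster on its chromosome, against the distance from the family gene in kb (horizontal axis), with 1 point per library. Mir148a and Mir148b lie above the Hox miRNAs of their chromosomes, and Mir152 lies 121-fold and 128-fold below Mir10a.

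The members differed little between replicates. In CPM, replicate 2 was 14.0% above replicate 1 for Mir148a, 10.4% for Mir148b and 5.54% for Mir152. After scaling by trimmed means of M values (TMM, which takes most genes as equal between libraries), the log2 ratios of replicate 2 to replicate 1 were 0.10 for Mir148a (95% exact interval 0.03 to 0.17), 0.05 for Mir148b (-0.06 to 0.16) and -0.01 for Mir152 (-0.14 to 0.12). In exact two-sided binomial tests adjusted over 404 genes (Benjamini-Hochberg), Mir148a passed the threshold of 0.05 (adjusted p = 0.0108) and Mir148b (0.502) and Mir152 (0.954) did not. Thus 1 of the 3 members was called, against 169 of the 404 genes, 41.8%, of which those higher in replicate 2 made up 17.8% of genes tested. Of the 187 genes tested that averaged at least 100 CPM, as each member does, 138 were called, or 73.8%. The median absolute log2 ratio of all 404 genes was 0.23, above the size for each member, and 0.21 for the 320 genes with at least 10 counts in each library. Both sets hold genes with far fewer counts than the members, where counting error alone gives larger ratios. No median was taken over genes of like level. These tests compare reads of 2 libraries, not conditions. With the spread between libraries added to counting error (a common dispersion of 0.0337), 1 of 404 genes passed, 0.248%, and no member did (exact beta-binomial test, adjusted p = 1 for each). That dispersion was estimated from the same 2 libraries, so it already holds the differences tested. Few calls follow from this, and no conclusion about the members is drawn from it. With DESeq2 size factors Mir148a did not pass (exact binomial test, adjusted p = 0.256), where 41.6% of genes did and 15.1% were higher in replicate 2. With library totals Mir148b also passed (adjusted p = 0.0262, same exact test), where 43.8% of genes did and 27.7% were higher in replicate 2. Over the 8 alternatives tried, the adjusted p of these exact tests ranged from 2.18e-07 to 1 for Mir148a, from 0.0262 to 1 for Mir148b and from 0.383 to 1 for Mir152. The SD of unscaled CPM was 9.23% of the mean for Mir148a, 6.98% for Mir148b and 3.81% for Mir152. The common dispersion gives 18.3% for all genes tested. That value is under TMM scaling and leaves counting error out, so it is not a like measure.

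**Figure D5:**
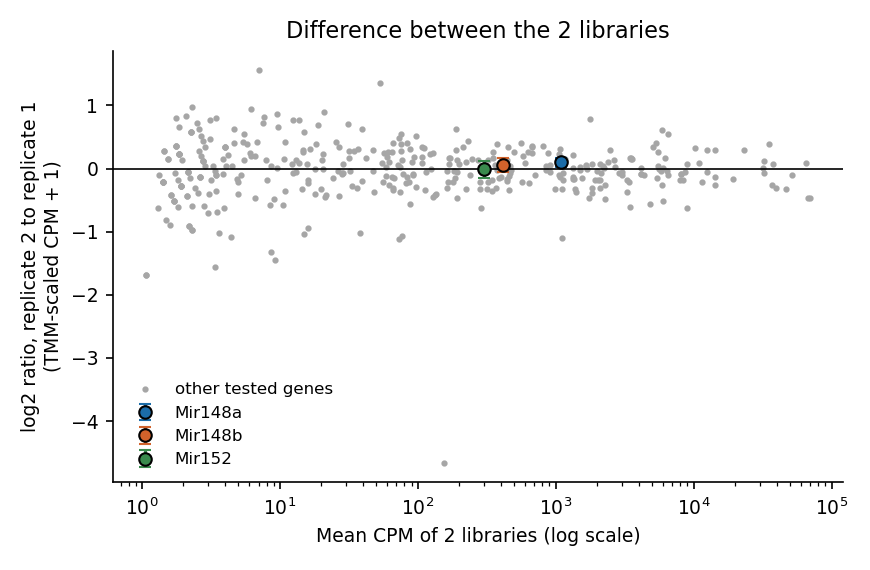
Log2 ratio of TMM-scaled CPM + 1 in replicate 2 over replicate 1 (vertical axis) against mean CPM on a log scale (horizontal axis) for the 404 genes tested, with the family genes in colour and their 95% exact intervals. The members lie at 0.10, 0.05 and -0.01, within the band of the other genes. The median absolute ratio of all 404 genes is 0.23, and this set holds genes with far fewer counts than the members.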

How the data were processed

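MicroRNA-seq of total RNA from 2 replicates of E14.5 mouse lung was used. For each miRNA gene the authors deposited 3 columns of whole-number counts, without regard to strand, on the gene strand and on the opposite strand (0 genes broke the sum). Per the deposited readme, reads were aligned to mm10 and counted against GENCODE M4. No aligner, counter or trimming step is named in the sources used here. The 4 summary entries were left out of library sizes. Multimapping reads, in no gene, were 32.9% of reads in replicate 1 and 33.1% in replicate 2, and unmapped reads 12.7% and 11.7%. Values are gene-strand counts, with 0.195 and 0.429 CPM per count. Of 1973 identifiers 1894 matched GENCODE M21, and 0 columns lacked a sample.

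CPM, ratios, exact intervals and ranks were computed with Python 3.11.15 and scipy 1.17.1, TMM factors over all genes and the common dispersion with edgeR 4.0.16, size factors with DESeq2 1.42.0, and folds with ViennaRNA 2.7.2. Genes with at least 10 counts over both libraries were tested between libraries, with a pseudocount of 1 CPM in log2 ratios. With 1 group there was no test between conditions. The genes named are the members, 3 other seed families, the Hox cluster miRNAs, cell type markers, the 2 genes nearest in level above and below each member, the nearest miRNA gene and the most abundant gene. The Dnmt mRNAs fall outside this rule. Members and lists were chosen with earlier results of these data known. Alternatives were other denominators, columns, scalings, pseudocounts, filters and averages, and leaving out each replicate.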

Additional observations from a re-analysis of the deposited data

How the results depend on the processing

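The order of the members and the directions of the ratios to miR-29 and miR-130 held under all alternatives tried for them. None of the alternatives returned multimapping reads to a gene, so the possible loss of miR-29 and miR-103 reads was not tested. With multimapping and other unassigned mapped reads in the denominator, the means were 628 CPM for Mir148a, 241 CPM for Mir148b, 173 CPM for Mir152 and 1042 CPM for the family. Without Mir143 in the denominator Mir148b stood at 448 CPM and Mir152 at 322 CPM. Replicate 1 and replicate 2 alone bounded the family at 1702 and 1901 CPM. Geometric means gave log2 ratios of 5.84 to miR-29 and -2.02 to miR-130, and without each family's leading gene the log2 ratio to miR-130 was -3.41. The log2 ratio to miR-103 turned to 2.28 with geometric means and to 3.10 without the leading genes. Mir107 holds nearly all assigned counts of that family. Both values rest on the low counts of Mir103-1 and Mir103-2, whose hairpins share 20 nt with another, so lost reads can make them too high. The ranks were 85, 113 and 124 for Mir148a, Mir148b and Mir152 when genes sharing 20 nt were left out, which shortens the list. Between replicates, Mir148a had a log2 ratio of 0.052 with DESeq2 size factors and 0.10 with the common dispersion added, neither past the threshold, Mir148b passed it at 0.14 with library totals, and Mir152 turned to 0.078 with library totals, not past it. TMM and DESeq2 scaling shift all log2 ratios by -0.09 and -0.14 relative to totals. Genes higher in replicate 2 were 72 of 169 calls with TMM, 61 of 168 with DESeq2 size factors and 112 of 177 with totals. The count of calls was 1 with the common dispersion added, which was estimated from the same 2 libraries. The counting intervals of unscaled CPM in the 2 libraries overlapped for Mir148b and Mir152 and not for Mir148a. The share of all genes without such overlap was not computed. With TMM scaling, 73.8% of the genes averaging at least 100 CPM were called between the libraries.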
